A study of Mus musculus with 36 samples.

Results

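Unsorted bone marrow-derived dendritic cells (DCs) of the first of 4 experiments are described here: 8 of the 36 arrays of the series, in 2 sets that carried the same labels but differed in expression. Replicates 1 and 2 (2 untreated arrays and 2 arrays of cells treated with soluble thrombomodulin, sTM) form the first set, and replicates 3 and 4 (again 2 untreated and 2 sTM-treated) form the other. The sets were chosen on measured values: an earlier look at these arrays had shown that replicates 3 and 4 lay apart from replicates 1 and 2. Every value of the comparison between the sets is therefore a description with no test, and tests are given only for the change with sTM, for its difference between the sets, and for arrays that do not belong to experiment 1.

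All cells came from Balb/c mice of 10 to 12 weeks, and no genotype other than this strain background was given. Bone marrow was grown in GM-CSF (granulocyte-macrophage colony-stimulating factor) at 100 ng/ml, and the cells were harvested on day 6. Treated cultures received 200 nM of the soluble human protein from day 4, and untreated cultures received none. The labels call the replicates biological, but whether each number stands for a mouse, a pool of mice or a culture, and on which days the RNA was labelled or hybridized, the sources used here do not state. The other arrays used below are 8 unsorted arrays of experiments 2 and 3 (2 untreated and 2 treated in each) and 20 arrays of cells sorted with magnetic beads for surface thrombomodulin (10 TM+ and 10 TM-, from experiments 2 to 4, with untreated and sTM-treated cultures in both).

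Bone marrow grown in GM-CSF is not a pure cell type. The cytokine drives progenitors through several divisions and along monocytic and granulocytic paths, so that dividing precursors, neutrophils and eosinophils, macrophage-like cells and DCs lie side by side, and adherent stromal cells may remain. DCs in such cultures can mature without an added stimulus, and then raise cytokines, co-stimulatory molecules and the inhibitors that switch NF-κB off again. In whole cultures a lower signal of a gene can mean fewer cells that express it or less RNA per cell, and these cannot be told apart here.

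Values are log2 intensities, so a difference of 1 is 2-fold. Each of 19938 genes was read from 1 transcript cluster. Over all clusters, arrays of replicates 1 and 2 correlated with each other at 0.971 to 0.988, and arrays of replicates 3 and 4 at 0.981 to 0.985. Between the sets the correlation was 0.948 to 0.973. For comparison, the correlation with unsorted arrays of experiment 2 was 0.94 to 0.969 for replicates 1 and 2 and 0.941 to 0.962 for replicates 3 and 4, so the sets of experiment 1 lay about as far from each other as from another experiment. The first principal component of the 8 arrays held 69.6% of the variance and separated the sets, with scores from -51.6 to -20.6 in replicates 1 and 2 and from 35.0 to 40.8 in replicates 3 and 4. Replicates 3 and 4 were tightly grouped whatever the treatment, whereas in replicates 1 and 2 the untreated arrays (-20.6 and -34.6) lay nearer to the other set than the treated arrays (-51.6 and -42.2). The spread of intensities moved with the sets: the 75th percentile of each array was 329 to 365 in replicates 1 and 2 and 302 to 320 in replicates 3 and 4, and the 25th percentile was 40.5 to 42.1 and 43.3 to 46.0. The part of this narrower range in the differences below was not tested.

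RNA of the labelled cell type was measured in both sets, at a somewhat lower mean level in replicates 3 and 4. Over 19 markers of conventional DCs the mean was 8.36 to 8.53 in replicates 1 and 2 and 8.03 to 8.15 in replicates 3 and 4, without overlap. Of these markers 5 were lower without overlap, 3 of them at least 2-fold (*Mgl2*, *Clec10a* and *Cd24a*), and 2 were higher (*Irf8* and *Zbtb46*). Among all genes, 19.3% were lower and 16.0% higher without overlap. The median difference of the markers was -0.15, against 0.12 for all genes, and was -0.21 in untreated and 0.01 in treated arrays. Most markers thus had a difference below 0, but only 5 of the 19 were lower without overlap. *Itgax*, which encodes CD11c, lay between 11.77 and 12.23 in replicates 1 and 2 and between 11.72 and 12.01 in replicates 3 and 4. *H2-Ab1*, a class II major histocompatibility chain, lay between 10.98 and 11.44 and between 10.82 and 11.11, and *Cd74*, the invariant chain, between 12.14 and 12.26 and between 12.09 and 12.28. *Zbtb46*, a transcription factor of conventional DCs, had a weaker signal than these 3 genes and was higher in replicates 3 and 4 (7.28 to 7.55 and 7.55 to 7.81). *Flt3*, the receptor for the Flt3 ligand, was at 6.37 to 6.62 and 6.45 to 6.87. *Thbd*, the gene for thrombomodulin itself, was at 6.12 and 6.38 (untreated) and 6.1 and 6.5 (treated) in replicates 1 and 2 and at 6.43, 6.34, 6.31 and 5.93 in replicates 3 and 4. The 2 sets overlapped for *Thbd*, with a difference of -0.02.

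Most of the genes that differed at least 2-fold were lower in replicates 3 and 4. A gene was counted where the 4 arrays of one set did not overlap the 4 of the other and the mean difference was at least 2-fold. By this count 210 genes (1.05% of 19938) were higher in replicates 3 and 4 and 1096 (5.5%) were lower. Without the fold limit, 3192 genes (16.0%) were higher without overlap and 3857 (19.3%) lower, and the median difference of all genes was 0.12. Taken within a treatment, where only 2 arrays stood against 2, more genes were higher than lower without overlap (7569 and 5486 in untreated, 7151 and 5570 in treated arrays). With each array centred on its 75th percentile, which moved that median to 0.26, the counts were 341 and 792, so the preponderance of lower genes depends in part on the scale. The limit divided neighbours of nearly equal value: *Cds1* (1.0017) and *Arhgap26* (1.004) were counted as higher while *Dcn* (0.9999) and *Trim6* (0.9997) were not, and *2210016F16Rik* (-1.0001) and *Cdc42se1* (-1.0004) were counted as lower while *Lsm3* (-0.9994) and *Vps13c* (-0.999) were not. Within one set and treatment, the 2 arrays differed by a median of 0.162 to 0.198, and 14 to 56 genes lay at least 2-fold apart.

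The largest measured difference was in *Ccr2*, the receptor through which monocytes answer the chemokine Ccl2. Its level in replicates 1 and 2 was 10.25 and 10.39 in untreated and 11.4 and 11.22 in treated cells, and in replicates 3 and 4 it was 6.25, 6.12, 5.78 and 6.18. The measured difference was -4.73, or 26.6-fold. All 4 arrays of replicates 3 and 4 lay near the 25th percentile of the array (5.44 to 5.52), so the fold may be a lower bound. *Ccr2* was also low in the unsorted arrays of experiment 2 (6.71 to 7.46) and experiment 3 (6.64 to 7.53). In sorted cells it was at 9.42 to 10.88 in TM+ DCs and at 5.61 to 7.17 in TM- DCs (difference 4.04 ± 0.15 (SE), adjusted p = 1.2e-13).

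*Ifitm6*, a member of the interferon-induced transmembrane family found in myeloid cells, followed the same order. It stood at 10.34, 10.3, 11.13 and 11.16 in replicates 1 and 2 and at 7.24, 7.6, 6.96 and 7.25 in replicates 3 and 4, a difference of -3.47. *Mrc1*, the mannose receptor of macrophages and of immature DCs, lay in the same range: 9.3, 9.52, 10.62 and 10.31 against 6.93, 6.39, 6.38 and 6.68, or -3.34. In both genes the treated arrays of replicates 1 and 2 were the highest of the 8. The other leading lower genes were *F630028O10Rik* (-4.12), *Rgs18* (-3.95, a regulator of G protein signalling in blood cells), *Kpna2* (-3.64, an importin that carries proteins into the nucleus), *Dkc1* (-3.36, the pseudouridine synthase dyskerin), *Myc* (-3.36), *Gda* (-3.32, guanine deaminase), *Ccna2* (-3.32, cyclin A2), *Serpinb10* (-3.3, a serpin of myeloid progenitors) and *Nuf2* (-3.28, part of the kinetochore). All 12 had a positive difference between TM+ and TM- sorted DCs, from 2.05 (*Serpinb10*) to 4.04 (*Ccr2*), and all 12 were called there, against 18.6% of all genes called higher.

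The leading higher genes were smaller in size and of other kinds. *Il12b*, the shared p40 subunit of interleukins 12 and 23, was at 10.06 and 9.6 in untreated and 8.65 and 8.38 in treated cells of replicates 1 and 2, and at 11.29, 11.41, 11.31 and 11.73 in replicates 3 and 4, a difference of 2.26. *Adm*, the vasodilator adrenomedullin and a gene induced by low oxygen, was at 7.85, 7.72, 6.79 and 6.91 against 9.48, 9.3, 9.55 and 9.53 (2.15). *Gipr*, the receptor for the incretin GIP, was at 7.09, 7.09, 6.94 and 7.2 in replicates 1 and 2 and at 9.58, 9.55, 9.56 and 9.31 in replicates 3 and 4 (2.42). In the first 2 of these genes the treated cells of replicates 1 and 2 were the lowest of the 8 arrays.

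*F3*, which encodes tissue factor, the initiator of coagulation, was 4.01-fold higher in replicates 3 and 4 (10.23, 10.21, 9.94 and 10.3 against 9.02, 8.94, 7.36 and 7.36). *Itgb8*, an integrin chain that activates latent TGF-β, was at 10.68, 10.37, 10.21 and 10.32 against 9.38, 9.68, 7.44 and 7.24 (1.96). The other leading higher genes were *G530011O06Rik* (2.69), *Plod2* (2.04, a lysyl hydroxylase of collagen), *Eno2* (2.01, an enolase), *Dot1l* (1.91, a histone H3 methyltransferase), *Vaultrc5* (1.9, a small vault RNA), *Csrnp1* (1.87, a nuclear protein) and *Pgf* (1.83, placental growth factor). Of these 12 genes, 11 were called lower in TM+ than in TM- sorted DCs, against 18.7% of all genes. The exception was *Vaultrc5* (-0.41 ± 0.19, adjusted p = 0.091), whose level also varied widely among the other unsorted arrays (10.15 to 12.18 in experiment 2 and 8.27 to 9.42 in experiment 3).

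**Figure D1:**
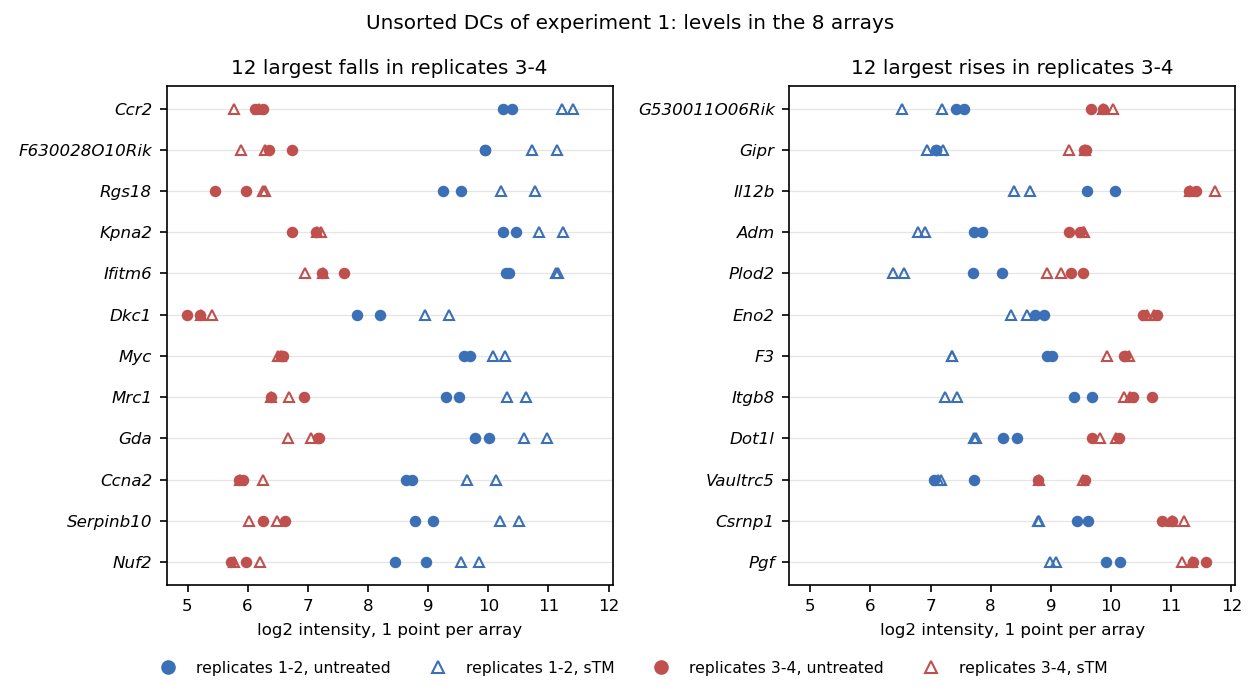
Levels (log2 intensity, horizontal axis, 1 point per array) of the 12 genes with the largest differences below 0 and the 12 with the largest above 0 in replicates 3 and 4 among genes whose arrays did not overlap. Blue marks replicates 1 and 2 and red replicates 3 and 4; filled circles are untreated and open triangles sTM-treated arrays. For *Ccr2* the 4 red points lie between 5.78 and 6.25 and the 4 blue points between 10.25 and 11.4, of which the treated arrays are the 2 highest.

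Genes of mitosis were lower in replicates 3 and 4 almost throughout. Of 39 measured genes of cell division, 37 were lower without overlap and 34 of these at least 2-fold, and none was higher. Among all genes, 19.3% were lower without overlap and 5.5% were lower by 2-fold as well. Their median difference was -1.87, against 0.12 for all genes, and was -1.36 in untreated and -2.23 in treated arrays. *Ccna2*, which pairs with Cdk2 and Cdk1 from S phase to mitosis, was at 8.74 and 8.64 in untreated and 10.13 and 9.65 in treated cells of replicates 1 and 2, and at 5.92, 5.85, 5.87 and 6.25 in replicates 3 and 4. *Top2a*, the topoisomerase that disentangles chromosomes, was at 9.52, 9.84, 10.54 and 10.2 against 6.94, 7.02, 6.94 and 7.31. Neither gene overlapped between the sets. *Anln* (anillin, of the cleavage furrow) and *Nuf2* differed by -2.97 and -3.28. *Mki67*, whose protein coats mitotic chromosomes and serves as a marker of cycling cells, was an exception chosen here after its values were seen: it was at 10.06 to 10.5 in replicates 1 and 2 and at 9.94 to 10.15 in replicates 3 and 4, so that the sets overlapped.

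Genes of DNA replication were lower too, with 30 of 32 lower without overlap, 22 of them at least 2-fold, and a median of -1.3. The shares of all genes were 19.3% and 5.5%. *Rrm1*, the large subunit of ribonucleotide reductase, was at 10.2, 10.57, 11.16 and 11.13 against 8.02, 8.07, 7.75 and 8.25 (-2.74). *Mcm6* and *Mcm3*, subunits of the replicative helicase, differed by -2.53 and -2.4, and *Prim1*, a primase, by -2.52. In the same list 31 of 32 genes were called higher in TM+ sorted DCs, and 39 of 39 in the list of cell division, against 18.6% of all genes.

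Replicates 1 and 2 also held more RNA of the ribosome-building genes. Of 24 genes for ribosome biogenesis, 23 were lower in replicates 3 and 4 without overlap and 19 at least 2-fold (median -1.31). The shares of all genes were 19.3% and 5.5%. *Dkc1* was at 7.81, 8.2, 9.35 and 8.94 against 5.21, 4.99, 5.41 and 5.22, values below the 25th percentile of these arrays, so that its fold may be a lower bound too. *Myc*, the transcription factor that drives growth genes, was at 9.69, 9.59, 10.27 and 10.08 against 6.55, 6.58, 6.56 and 6.51, the tightest grouping of replicates 3 and 4 among the leading genes. *Nop58*, of the small nucleolar particles, differed by -2.88 and *Wdr12*, of the large-subunit processing complex, by -2.11. The structural proteins of the ribosome differed far less: of 19, 7 were lower without overlap, none by 2-fold, and *Rpl8* had the largest difference (-0.71).

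Metabolic genes followed with smaller differences. Among all genes, 19.3% were lower without overlap and 5.5% were lower by 2-fold as well. For oxidative phosphorylation 18 of 22 were lower without overlap (median -0.65) and 3 at least 2-fold, led by *Ndufs1* of complex I (9.84, 10.14, 10.53 and 10.28 against 8.48, 8.23, 8.24 and 8.6). For cholesterol synthesis 15 of 20 were lower without overlap (median -0.84) and 9 at least 2-fold, with *Nsdhl* at -1.29, *Msmo1* at -1.28, *Cyp51* at -1.21 and *Hsd17b7* at -1.19. Genes of amino acid stress were mixed: of 25, 9 were lower and 6 higher without overlap (median -0.22). The serine and asparagine enzymes *Shmt2* (-1.87), *Psat1* (-1.82) and *Asns* (-1.66) were lower, while *Ddit4*, an inhibitor of mTOR signalling, was higher (8.9, 8.86, 8.51 and 8.46 against 10.4, 10.41, 10.19 and 10.21).

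The promoters of the mitotic genes are shown for motifs that many of them hold. The motif shares of a gene list are a property of the list and were not measured in these arrays. Mitotic genes are known to be read through a CCAAT box, bound by NF-Y, and a cell cycle homology region (CHR), bound by the DREAM complex. RefSeq promoter windows of 250 bases before to 50 bases after the start (build GRCm38.p6) were matched to 15563 of the 19938 genes. The CHR letters TTTGAA, searched on both strands, were present in 24 of 32 cell division promoters (75%), against 15.2% of the promoters of all tested genes. The letters CCAAT were present in 25 of these 32 (78.1%), against 38.3%. Neither motif contains the other. Among all genes lower in replicates 3 and 4, 19.6% of 917 promoters held the CHR letters, against 15.2% for all tested genes. For the higher genes the share was 9.49% of 158 promoters. A match is a run of letters and not a measured binding site. Genes of a chromosome were left out of the choice of promoters to print, here and below. Of the rest, the 3 list members with the largest differences that held both motifs in the 250 bases before the start were *Top2a*, *Kif11* and *Ect2*. These bases are given 5′ to 3′, with CCAAT and CHR letters on either strand in capitals.
*Top2a* (chr11:99024190-99024439, minus strand): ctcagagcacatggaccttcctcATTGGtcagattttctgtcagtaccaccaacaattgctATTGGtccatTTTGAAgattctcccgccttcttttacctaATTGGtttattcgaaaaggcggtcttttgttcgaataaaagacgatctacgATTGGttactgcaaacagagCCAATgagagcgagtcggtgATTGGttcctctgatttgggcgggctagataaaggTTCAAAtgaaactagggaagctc
*Kif11* (chr19:37376132-37376381, plus strand): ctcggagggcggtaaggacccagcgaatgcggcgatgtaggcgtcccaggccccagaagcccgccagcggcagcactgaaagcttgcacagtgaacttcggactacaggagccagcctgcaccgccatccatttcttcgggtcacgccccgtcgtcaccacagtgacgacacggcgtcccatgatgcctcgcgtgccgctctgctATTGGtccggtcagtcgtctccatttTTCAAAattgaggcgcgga
*Ect2* (chr3:27153879-27154128, minus strand): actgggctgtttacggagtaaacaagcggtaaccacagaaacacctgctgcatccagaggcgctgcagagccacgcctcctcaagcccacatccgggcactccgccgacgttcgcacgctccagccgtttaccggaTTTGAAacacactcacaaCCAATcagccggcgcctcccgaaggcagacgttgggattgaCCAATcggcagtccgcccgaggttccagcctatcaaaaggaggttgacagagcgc

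In *Top2a*, 8 matches stood in these 250 bases, in *Kif11* 2 and in *Ect2* 3. Among the ribosome biogenesis genes, the E-box CACGTG, the core that Myc and Max bind, was present in 5 of 18 promoters (27.8%), against 8.4% of all tested genes, and the CHR letters in 1 of 18. The E-box of *Nop2*, a methyltransferase of ribosomal RNA, is given in capitals because it is the counterpart to the mitotic promoters above. *Nop2* had the largest difference of the list members open to choice that held this motif before the start.
*Nop2* (chr6:125131633-125131882, plus strand): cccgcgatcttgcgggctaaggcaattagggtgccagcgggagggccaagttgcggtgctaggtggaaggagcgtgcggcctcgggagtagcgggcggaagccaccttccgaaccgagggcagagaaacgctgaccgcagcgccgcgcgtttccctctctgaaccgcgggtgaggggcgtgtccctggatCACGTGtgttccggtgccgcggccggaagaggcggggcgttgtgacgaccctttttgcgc

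Granulocyte genes were lower in replicates 3 and 4 as well. Of 8 measured genes of the eosinophil list, 6 were lower without overlap, each at least 2-fold, and 1 was higher (*Il5ra*, 0.24). Of all genes, 5.5% were lower without overlap and by 2-fold. *Epx*, eosinophil peroxidase, was at 8.95, 9.24, 9.07 and 8.77 in replicates 1 and 2 and at 5.97, 5.79, 5.96 and 6.12 in replicates 3 and 4. *Prg2*, the major basic protein of the granule, was at 9.4, 9.71, 10.22 and 10.49 against 6.53, 6.99, 6.65 and 7.13. *Alox15*, a lipoxygenase that macrophages also express, differed by -3.03, and *Ear6*, an eosinophil ribonuclease with close relatives among which probes may cross-hybridize, by -2.53. *Epx* in replicates 3 and 4 lay near the 25th percentile of these arrays (5.44 to 5.52), so its difference may be understated. The summed intensity of the list was 2970 to 4990 in replicates 1 and 2 and 720 to 883 in replicates 3 and 4. Its mean level in replicates 3 and 4 (6.3 to 6.52) lay below that of unsorted experiments 2 (6.84 to 7.31) and 3 (6.8 to 7.31), and that of replicates 1 and 2 (7.95 to 8.5) above both.

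Late neutrophil genes showed a smaller difference of the same sign. Of 19, 12 were lower without overlap and 7 at least 2-fold (median -0.65), and the summed intensity was 31800 to 35200 against 24600 to 27500. *Ngp*, a granule protein, was at 9.31, 9.74, 10.3 and 10.22 against 7.8, 7.75, 7.97 and 7.56, *Ly6g* differed by -1.9, and *S100a8*, a calcium-binding alarmin, by -1.6. Of 11 primary granule genes of earlier precursors, 3 were lower without overlap, none by 2-fold, and none was higher (median -0.16). Among all genes, 19.3% were lower and 16.0% higher without overlap. The part of eosinophils and neutrophils in the other differences was not tested.

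Stromal genes ran the other way. Of 14, 8 were higher in replicates 3 and 4 without overlap, 5 at least 2-fold, and none was lower. Among all genes, 16.0% were higher without overlap and 1.05% were higher by 2-fold as well. *Col1a1*, a chain of type I collagen, was at 8.12, 7.86, 7.92 and 7.99 in replicates 1 and 2 and at 9.55, 9.68, 9.93 and 9.75 in replicates 3 and 4. *Sparc*, a collagen-binding matrix protein, was at 7.42, 7.19, 6.94 and 7.29 against 8.73, 9.01, 8.76 and 8.67, and *Col1a2* and *Bgn* differed by 1.53 and 1.33. The summed intensity was 1650 to 1870 against 3610 to 3990, and the sets did not overlap. The mean level of replicates 3 and 4 (7.27 to 7.4) exceeded that of every other unsorted or sorted group (6.29 to 7.14). The part of stromal cells in the other differences was not tested.

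Markers of monocytes and macrophages differed in both directions. Of 12 monocyte markers 5 were lower without overlap and 2 higher (median -0.3), and of 21 macrophage markers 7 were lower and 2 higher (median -0.2), against 19.3% lower and 16.0% higher among all genes. Besides *Ccr2* and *Ifitm6*, *Chil3* (Ym1, a chitinase-like protein) was lower in replicates 3 and 4 (12.19, 12.35, 11.97 and 11.88 against 9.5, 9.78, 9.3 and 9.36), whereas *Nr4a1*, a nuclear receptor of patrolling monocytes, was higher (1.0). The lectins *Mgl2* (-2.88) and *Clec10a* (-2.45), which with *Mrc1* and *Chil3* are counted among genes of alternative activation, were lower, and 9 of 19 genes of that list were lower without overlap. *C1qa* and *C1qc* of complement differed by -1.3 and -1.17. By contrast, *Csf1r*, *Adgre1* and *Csf2ra*, which encode the M-CSF receptor, F4/80 and the GM-CSF receptor chain, overlapped between the sets (differences of -0.16, -0.2 and 0.01; these 3 genes were chosen after their values were seen).

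**Figure D2:**
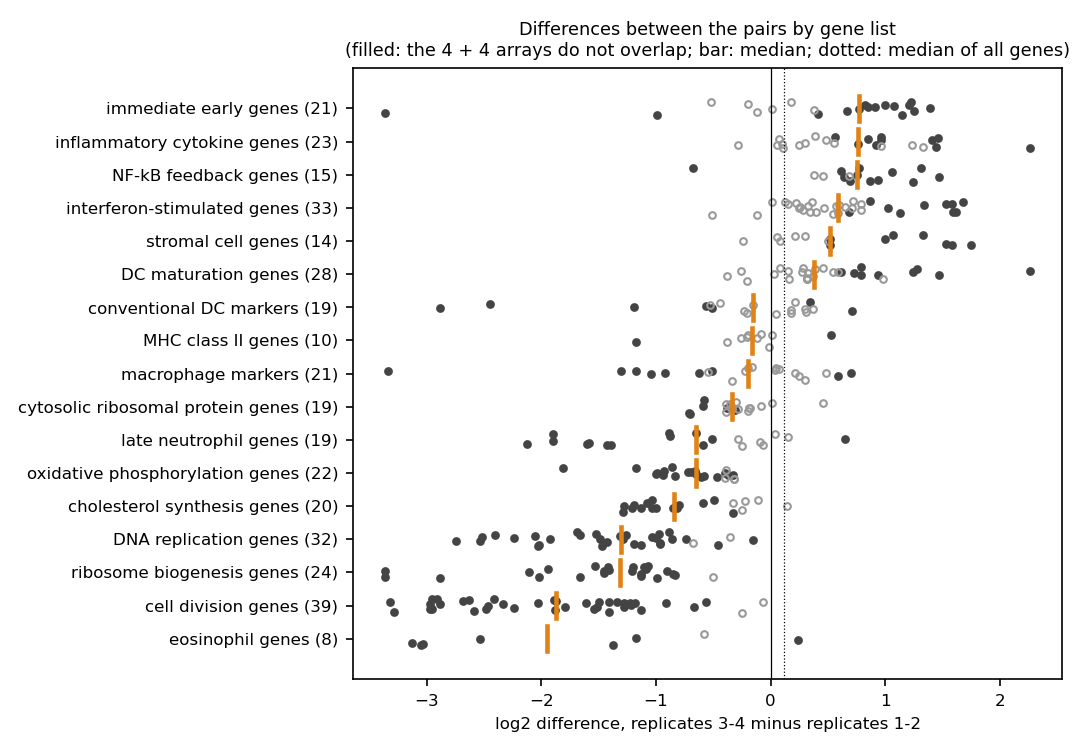
Log2 difference of each measured gene (replicates 3 and 4 minus replicates 1 and 2, horizontal axis) in 17 gene lists, with the number measured in parentheses. Filled points are genes whose arrays did not overlap, orange bars are list medians and the dotted line is the median of all genes (0.12). The lists run from the eosinophil genes (median -1.95) to the immediate early genes (median 0.77), where *Myc* stands alone at -3.36.

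Inflammatory genes were higher in replicates 3 and 4, and the size depended on the treatment of replicates 1 and 2. Among all genes, 16.0% were higher without overlap and 1.05% were higher by 2-fold as well. Of 15 feedback genes of NF-κB, 11 were higher without overlap, 4 of them at least 2-fold, and 1 was lower (*Tnip3*, -0.68). The median was 0.75, with 0.35 in untreated and 1.16 in treated arrays. *Nfkbiz*, a nuclear IκB protein, was at 9.44 and 9.45 in untreated and 8.4 and 8.39 in treated cells of replicates 1 and 2, and at 10.37, 10.3, 10.36 and 10.53 in replicates 3 and 4. *Tnfaip3*, the deubiquitinase A20 that ends NF-κB signalling, was at 11.13, 11.09, 10.11 and 9.95 against 11.94, 11.81, 11.8 and 11.98. *Traf1* and *Zc3h12a* (regnase-1, which degrades cytokine mRNA) differed by 1.24 and 1.06. In each of these genes the untreated arrays of replicates 1 and 2 lay between the treated arrays of the same replicates and replicates 3 and 4.

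Cytokine and maturation genes were higher in part. Of 23 inflammatory cytokine genes 10 were higher without overlap and none was lower (median 0.76), and of 28 genes of DC maturation 9 were higher and none lower (median 0.38), against 16.0% higher among all genes. The median of the maturation genes was 0.1 in untreated arrays, where that of all genes was 0.11, and 0.8 in treated arrays. *Nos2*, the inducible nitric oxide synthase, was at 11.89, 11.92, 10.37 and 10.34 against 12.52, 12.66, 12.53 and 12.57. *Lif*, a cytokine of the interleukin 6 family, was at 6.96, 6.93, 7.02 and 6.82 against 8.5, 8.52, 8.06 and 8.5, with no step between untreated and treated arrays. *Osm* differed by 1.41, *Cd200*, which restrains myeloid cells through its receptor, by 1.47, and the co-stimulatory receptor *Cd40* by 1.28. Among chemokines, *Cxcl1* (1.5) and *Cxcl2* (1.21), which draw neutrophils, were higher and *Ccl24*, which draws eosinophils, was lower (10.3, 10.15, 10.14 and 10.11 against 8.95, 9.15, 8.83 and 9.16).

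Interferon-stimulated genes differed between the sets chiefly in treated cells. Of 33, 10 were higher in replicates 3 and 4 without overlap, 8 of them at least 2-fold, and none was lower. Among all genes, 16.0% were higher and 19.3% lower without overlap, and 1.05% were higher by 2-fold as well. The median difference of the list was 0.1 in untreated and 1.06 in treated arrays. *Mx2*, an antiviral GTPase, was at 8.01 and 8.41 in untreated and 6.8 and 6.09 in treated cells of replicates 1 and 2, and at 9.03, 9.12, 8.62 and 9.24 in replicates 3 and 4. *Cxcl10*, a chemokine for T cells, was at 9.54, 9.73, 8.15 and 8.36 against 10.34, 10.7, 10.64 and 10.57, and *Ifit2* and *Cmpk2* differed by 1.59 and 1.58. The interferon-stimulated response element, searched as GAAANNGAAA on both strands, was present in 15 of 24 promoters of this list (62.5%), against 3.32% of all tested genes, but in 3.8% of the promoters of all genes higher in replicates 3 and 4. *Cxcl10* and *Rsad2* (viperin), the members open to choice that were at least 2-fold higher and held it before the start, are given with the element in capitals.
*Cxcl10* (chr5:92348890-92349139, minus strand): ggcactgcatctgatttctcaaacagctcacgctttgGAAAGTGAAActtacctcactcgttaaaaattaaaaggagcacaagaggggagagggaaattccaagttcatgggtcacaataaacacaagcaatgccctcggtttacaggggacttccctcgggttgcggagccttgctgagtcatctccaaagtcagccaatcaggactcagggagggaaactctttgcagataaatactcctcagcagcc
*Rsad2* (chr12:26456453-26456702, minus strand): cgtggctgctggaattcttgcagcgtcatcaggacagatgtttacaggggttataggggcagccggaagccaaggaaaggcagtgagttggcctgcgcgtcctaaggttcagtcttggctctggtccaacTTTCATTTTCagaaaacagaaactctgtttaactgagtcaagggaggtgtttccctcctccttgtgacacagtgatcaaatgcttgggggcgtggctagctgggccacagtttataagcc

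Immediate early genes were mostly higher. Of 21, 13 were higher without overlap and 2 lower (median 0.77), the latter *Myc* (-3.36) and *Ier2* (-0.99). *Dusp1*, a phosphatase of MAP kinases, was at 10.75, 10.99, 9.96 and 10.22 against 11.9, 12.05, 11.83 and 11.71, and *Junb* and *Nr4a3* differed by 1.25 and 1.22. The heat shock gene *Hspa1a* was at 8.49, 8.34, 8.27 and 8.32 against 9.89, 9.97, 10.45 and 10.38, while 18 of 23 genes of the unfolded protein and heat shock list, among them *Dnajc3* (-1.34), *Sdf2l1* (-1.22) and *Hspd1* (-1.06), were lower without overlap. Of 26 genes of glycolysis and low oxygen, 10 were higher without overlap and 2 lower, against 16.0% and 19.3% of all genes. The median of this list (0.18) lay near that of all genes (0.12). *Adm*, *Pfkfb3*, which speeds glycolysis (1.46), and *Vegfa* (1.36) had the largest differences of that list. In the coagulation list *F5* was lower (-1.72) and *Procr*, the receptor for protein C, was higher (1.0).

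Sorted cells gave a measure of the same genes in arrays that the choice of the sets did not use. Over 10 TM+ and 10 TM- arrays, limma with experiment as a random block called 3709 genes higher in TM+ DCs (18.6% of 19938) and 3729 lower (18.7%). Of the 210 genes higher in replicates 3 and 4, 192 (91.4%) were called lower in TM+ DCs, 1 was called higher and 17 were not called. Of the 1096 genes lower in replicates 3 and 4, 1009 (92.1%) were called higher in TM+ DCs, 7 lower and 80 not called. Read the other way, these are 5.15% of the 3729 and 27.2% of the 3709 called genes. The genes lower in replicates 3 and 4 were thus mostly higher in TM+ DCs, and the reverse. Whether the share of TM+ cells differed between the sets was not tested. The median TM+ minus TM- difference was -0.97 for the higher and 0.83 for the lower genes, against -0.08 for all genes. Without experiment 4, which gave 8 of the 20 sorted arrays, 132 of 210 (62.9%) and 575 of 1096 (52.5%) were called, when 4.94% of all genes were called lower and 7.44% higher. With arrays centred on the 75th percentile, 3168 genes were called higher and 7174 lower in TM+ DCs. The sources used here do not say if all 36 arrays went through 1 normalization.

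The exceptions were few and are named for that reason, after their values were seen. *Ccl24*, *Clec4a1*, *Csf2*, *Itm2a*, *Nqo1*, *Rab32* and *Tmem185a* were lower in replicates 3 and 4 and also lower in TM+ DCs. The largest of these in sorted cells was *Itm2a*, an integral membrane protein, at -2.04 with a difference between the sets of -1.49. *Csf2*, which encodes GM-CSF itself, differed by -1.3 between the sets and by -0.39 between TM+ and TM- DCs. *Fosb*, an AP-1 subunit, was the gene higher in both (1.21 and 0.77).

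**Figure D3:**
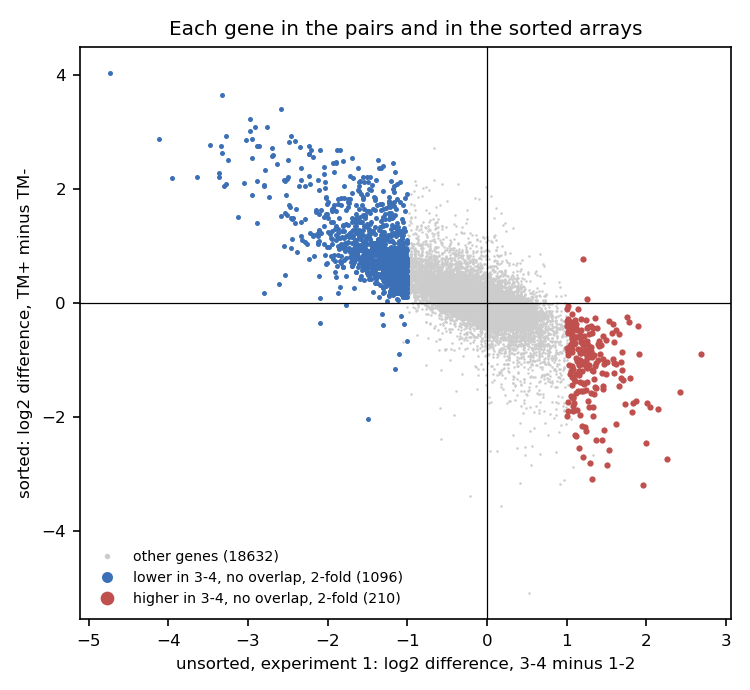
Difference of each gene between the sets of experiment 1 (horizontal axis, log2, replicates 3 and 4 minus replicates 1 and 2) against its difference between sorted cells (vertical axis, log2, TM+ minus TM-). Red marks the 210 genes higher and blue the 1096 genes lower in replicates 3 and 4 without overlap and at least 2-fold; nearly all red points lie below 0 and nearly all blue points above 0 on the vertical axis.

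The contrast between the other unsorted experiments ran with the difference between the sets for the higher genes but not for the lower genes. In 8 arrays, limma called 4414 genes (22.1%) higher and 3943 (19.8%) lower in experiment 3 than in experiment 2 (3279 and 6622 with arrays centred on the 75th percentile). Of the 210 genes higher in replicates 3 and 4, 105 (50%) were higher and 30 (14.3%) lower in experiment 3. Of the 1096 lower genes, 415 (37.9%) were higher and 233 (21.3%) lower. *Ccna2* was higher in experiment 3 (2.11, adjusted p = 1.55e-05), *Ccr2* did not pass the test (-0.16, adjusted p = 0.423), and *Il12b* (0.84, adjusted p = 0.00223) and *F3* (1.98, adjusted p = 1.51e-05) were higher. Genes of division and inflammatory cytokine genes were thus both mostly higher in experiment 3, with 28 of 39 and 15 of 23 called higher. Between the sets of experiment 1 these 2 lists ran in opposite directions. Other inflammatory lists varied in experiment 3. Of NF-κB feedback genes 8 of 15 were called higher and 0 lower, and of interferon-stimulated genes 15 of 33 higher and 5 lower. Of 22 chemokine genes, 3 were called higher and 9 lower.

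Mean list levels placed both sets among the other arrays. For cell division, replicates 3 and 4 (6.5 to 6.55) lay near unsorted experiment 2 (6.26 to 6.38) and TM- DCs (6.32 to 7.01), and replicates 1 and 2 (7.91 to 8.9) lay within the range of TM+ DCs (7.69 to 9.71) and above experiment 3 (6.83 to 7.46). For NF-κB feedback, replicates 3 and 4 (10.58 to 10.74) lay within the range of TM- DCs (10.38 to 10.94), and treated replicates 1 and 2 within that of TM+ DCs (9.33 to 10.21). For ribosome biogenesis, replicates 3 and 4 (7.62 to 7.68) were below every unsorted array of experiments 2 and 3 (8.2 to 8.36) and replicates 1 and 2 (8.88 to 9.43) above.

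**Figure D4:**
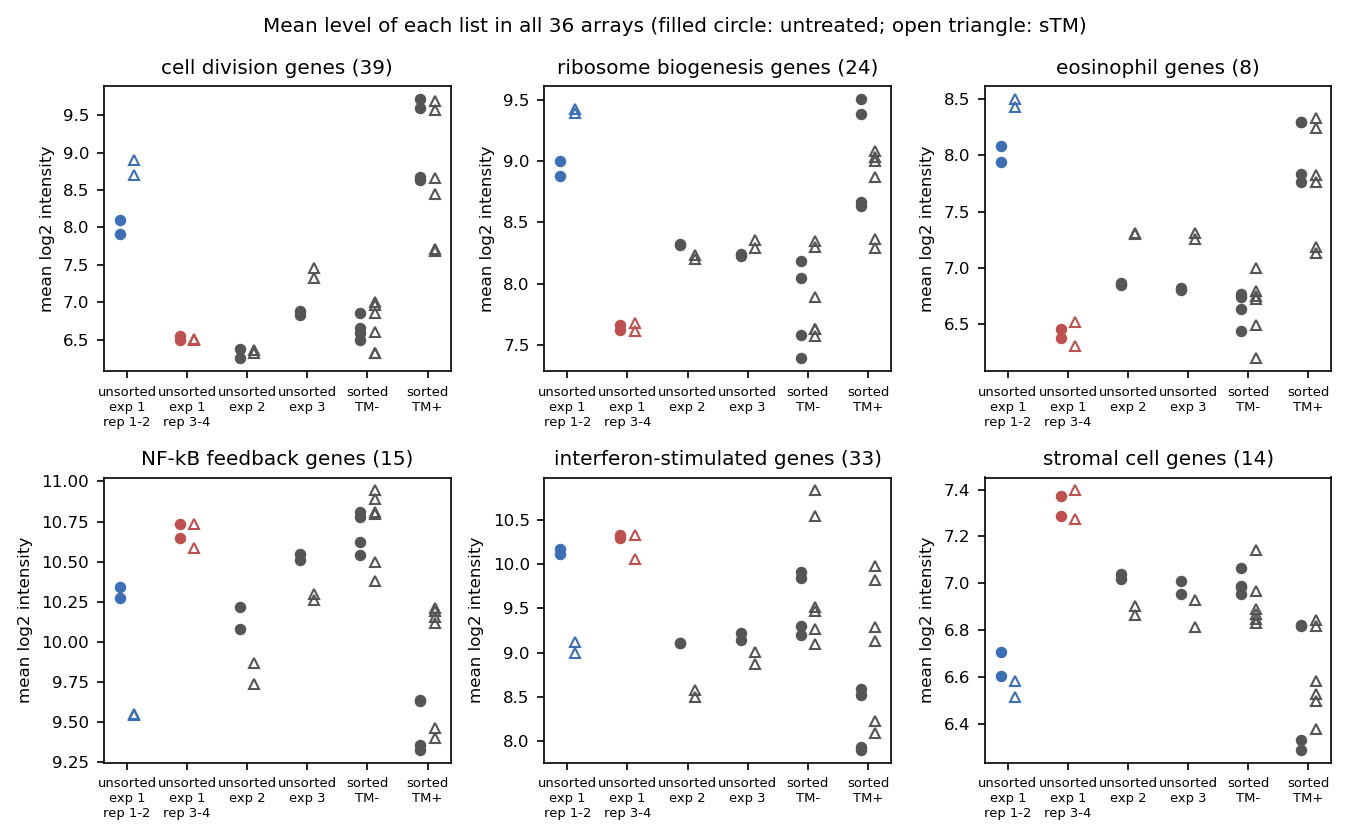
Mean log2 intensity of 6 gene lists (number of genes in parentheses) in each of the 36 arrays, by group; filled circles are untreated and open triangles sTM-treated arrays. Blue marks replicates 1 and 2 and red replicates 3 and 4 of experiment 1: for cell division genes blue lies at 7.91 to 8.9 and red at 6.5 to 6.55, and for stromal genes red (7.27 to 7.4) lies above all other groups.

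The change with sTM was seen mainly in replicates 1 and 2. The tests for it used the 8 arrays on whose values the sets were chosen, so they are not independent of that choice. Over all 8 arrays with the set as a covariate, limma called 0 genes (682 higher and 1097 lower at an unadjusted p under 0.05), but 28 higher and 95 lower without treated replicate 4, 4 and 12 without untreated replicate 3, and 3 and 6 without untreated replicate 4. The genes with the smallest p were *Havcr2*, the inhibitory receptor Tim-3, and *Mirt2*, a long non-coding RNA. *Havcr2* was at 8.03 and 7.95 in untreated and 7.03 and 6.72 in treated cells of replicates 1 and 2, and at 8.15 and 8.26 and at 7.53 and 7.57 in replicates 3 and 4, so that treated arrays were lower in both sets. A fit with the difference between the sets as a term, split after the data had been seen, called 333 genes higher (1.67%) and 586 lower (2.94%) with sTM within replicates 1 and 2, and 0 within replicates 3 and 4 (331 higher and 527 lower at an unadjusted p under 0.05). The counts in replicates 1 and 2 were 42 and 211 over all transcript clusters. They dropped by over 1.5 times without untreated replicate 2 (214 and 279) or treated replicate 2 (184 and 249), and the count of higher genes did so without untreated replicate 1 (159) or treated replicate 1 (116). At least 2-fold changes were estimated for 245 genes in replicates 1 and 2 and for 4 in replicates 3 and 4.

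The difference itself was tested. The change with sTM in replicates 3 and 4 minus that in replicates 1 and 2 was above 0 for 145 genes (0.727%) and below 0 for 41 (0.206%). With the replicate number as a block these counts were 103 and 24. They also rested on which features were tested: over all 35556 transcript clusters 0 were called (1953 above and 1299 below 0 at an unadjusted p under 0.05), and without the array of untreated replicate 3 the counts were 31 and 10. The other arrays whose removal moved a count by over 1.5 times were untreated replicate 2 (38 and 16), untreated replicate 4 (34 and 3), treated replicate 2 (38 and 22), treated replicate 4 (36 and 27) and treated replicate 1 (15 below 0). The interaction estimates of the 5 genes named next kept their sign under every alternative run.

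*Itgb8* fell with sTM in replicates 1 and 2 from 9.38 and 9.68 to 7.44 and 7.24, and was at 10.68 and 10.37 without and 10.21 and 10.32 with sTM in replicates 3 and 4. The difference between the changes was 1.92 ± 0.25 (SE, adjusted p = 0.00292). *Vnn3*, a pantetheinase relative, fell from 10 and 10 to 8.35 and 8.12 in replicates 1 and 2, but was at 9.3 and 9.02 and at 9.27 and 9.55 in replicates 3 and 4 (difference 2.02 ± 0.25). *Susd2*, a sushi domain protein of the surface, fell from 9.78 and 10.1 to 7.86 and 8.02 against 8.8 and 8.7 and 8.93 and 8.49 (1.96 ± 0.26), and the transcripts *U90926* (1.98 ± 0.25) and *AI506816* (2.26 ± 0.3) behaved alike. For *Vnn3*, *Susd2*, *U90926* and *AI506816* the levels of the sets overlapped.

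Interferon, NF-κB, cytokine and cell division genes were called in replicates 1 and 2. In these replicates 28 of 33 interferon-stimulated genes were called lower with sTM (median -1.06), 10 of 15 NF-κB feedback genes (median -0.78) and 14 of 23 inflammatory cytokine genes (median -0.79), against 2.94% of all genes. Of 39 cell division genes 28 were called higher (median 0.8), against 1.67%, as were 16 of 32 DNA replication genes. In replicates 3 and 4 the medians of these lists were -0.15, -0.02, -0.1, -0.01 and 0.03, and no gene was called. The difference was past the test for 14 of 33 interferon-stimulated genes, 4 of 15 NF-κB feedback genes and 6 of 23 cytokine genes, all above 0 (0.727% of all genes), and for 4 of 39 cell division genes, all below 0 (0.206%). Over all transcript clusters none of these calls was kept. Among them, *Mx2* fell by 1.77 with sTM in replicates 1 and 2 (difference between the sets 1.62) and *Nos2* fell by 1.54 (difference 1.5). The comparison of the sets and the change with sTM share their arrays, so the values are set side by side and no agreement between them is counted.

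**Figure D5:**
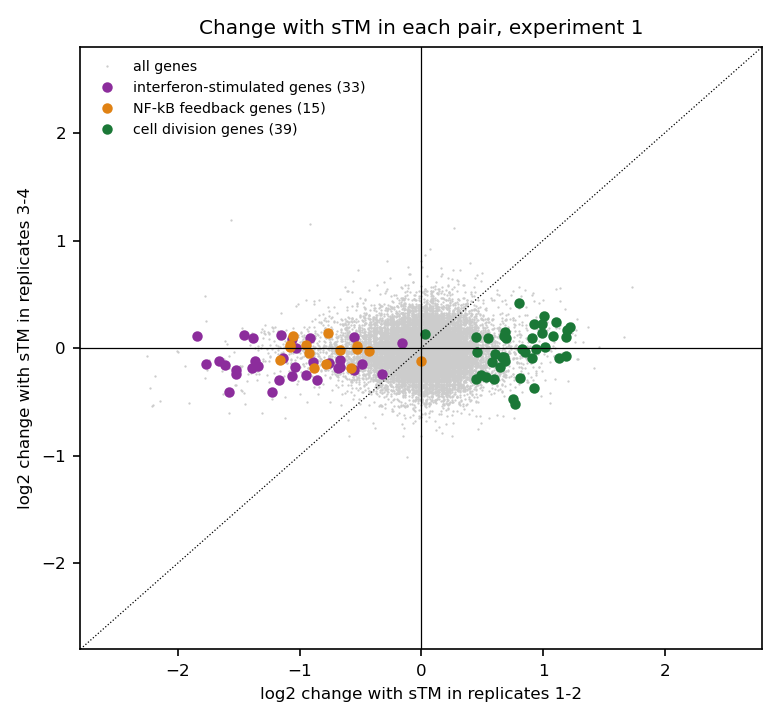
Log2 change of each gene with sTM in replicates 1 and 2 (horizontal axis) and in replicates 3 and 4 (vertical axis) of experiment 1; grey points are all 19938 genes and the dotted line marks equal change. Interferon-stimulated genes (median -1.06) and NF-κB feedback genes (median -0.78) spread to the left and cell division genes (median 0.8) to the right, while all 3 lists stay near 0 on the vertical axis (medians -0.15, -0.02 and -0.01).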

How the data were processed

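Total RNA was hybridized to Affymetrix Mouse Gene 1.0 ST arrays. The authors background-corrected, normalized and summarized the probes by RMA in APT with NetAffx annotation, and deposited a linear intensity for each of 35556 transcript clusters. These were taken to log2. Precision is limited by how many arrays each set holds. Of the clusters, 21789 carried 1 gene symbol, 1621 several and 12146 none; 1 cluster per symbol (highest mean over 36 arrays) gave 19938 genes, 19856 of them with symbols updated through RefSeq.

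Deviations of same-numbered arrays of experiment 1 from their treatment mean correlated at 0.75, 0.56, 0.72 and 0.62, which holds the difference between the sets. With the set removed the correlations were -0.14 and 0.06, so the numbers paired nothing beyond the sets.

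Tests used limma 3.58.1 (lmFit, eBayes, Benjamini-Hochberg over all genes, threshold 0.05) in R 4.3.3: sTM with the set as covariate, its interaction with the set, TM+ against TM- with experiment as a random block (duplicateCorrelation), and experiment 3 against 2 with treatment as covariate. P-values measure the spread between these samples, which may be technical. The tests were checked on simulated data.

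Named genes are the 12 largest rises and 12 largest falls without overlap, up to 4 members of each gene list with the largest difference, *Thbd*, and the genes with the smallest p for sTM and its interaction. The DC markers *Itgax*, *Cd74*, *Zbtb46* and *Flt3*, *Il5ra*, *Ier2*, *Irf8*, *Tnip3*, *Csf1r*, *Adgre1*, *Csf2ra*, *Mki67*, the exceptions in sorted cells, the genes at the fold limit and the genes whose promoters are printed fall outside this rule and were chosen after their values were seen. The sets, the 37 gene lists (682 memberships measured, 63 not) and the tests were chosen with earlier results of these data known. Alternatives were centring on the 75th percentile, quantile normalization, leaving out genes below the 25th percentile, all clusters, other variance settings and blocks, and leaving out each array.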

Additional observations from a re-analysis of the deposited data

Results flagged for a closer look

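The change with sTM differed between the sets of experiment 1 for 5 named genes, by the interaction term of limma (replicates 3 and 4 minus replicates 1 and 2, log2): *Itgb8* (1.92), *Vnn3* (2.02), *U90926* (1.98), *AI506816* (2.26) and *Susd2* (1.96). All 5 fell with sTM in both treated arrays of replicates 1 and 2.

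In 4 of 312 tests of named genes within the 4 untreated or the 4 treated arrays, 1 array stood apart by Dixon's ratio of gap to range. These were *Il13* in untreated arrays (0.883, replicate 3 low at 8.08 against 8.49 to 8.54), *Cpa3* in treated arrays (0.841, replicate 1 high at 6.21), *Cd3g* in treated arrays (0.862, replicate 1 low at 5.04) and *Itga2b* in treated arrays (0.842, replicate 3 high at 7.76). The nominal rate of about 1 in 20 groups holds for values from a single population. Each group here held arrays of both sets, so that rate does not apply and the count of flags was not set against it.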

How the results depend on the processing

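Of 187 named values, 10 changed sign under some alternative, all of them differences between the sets of at most 0.73 in size with overlapping arrays: *AI506816*, *Cd2*, *Hdc*, *Il13*, *Kdm5d*, *Susd2*, *Thbd*, *U90926*, *Uty* and *Vnn3*. The number of genes higher in replicates 3 and 4 by the 2-fold count (210) was 341 with arrays centred on the 75th percentile, 349 after quantile normalization, 493 over all transcript clusters, 75 in untreated and 513 in treated arrays alone, and 786 at 1.5-fold; the number lower (1096) was 2591 at 1.5-fold. With single arrays left out these counts ran from 152 to 292 and from 950 to 1243. The 2 scalings gave 341 higher with 792 lower and 349 with 955. Of the 210 and 1096 genes, 208 and 886 were counted again after quantile normalization. For the difference in sTM response (145 above and 41 below 0), centring gave 55 and 17, the filter on dim genes 65 below, all clusters 0 and 0, the replicate block 24 below, and trended robust variances 289 and 115; leaving out arrays gave 31 to 121 and 3 to 33. Within replicates 1 and 2 (333 higher, 586 lower with sTM) all clusters gave 42 and 211 and left-out arrays 116 to 350 and 249 to 617; within replicates 3 and 4, left-out arrays gave 0 to 2 higher, the 2 without untreated replicate 1 or 2, and 0 lower. The overall change with sTM (0 genes) had 0 to 28 higher and 0 to 95 lower genes with an array left out, the most without treated replicate 4, and 0 under the replicate block. In sorted DCs (3709 higher, 3729 lower in TM+) centring gave 3168 and 7174, left-out arrays 3256 to 4026 and 2714 to 5201, and leaving out experiment 4 1484 and 985; 575 of the 1096 genes were then called higher, against 966 to 1031 with single arrays left out, and 188 to 194 of the 210 genes called lower with single arrays left out. Experiment 3 against 2 (4414 and 3943) gave 3279 and 6622 with centring, 2518 lower with the dim filter, 6639 and 6865 over all clusters, and 3625 to 4494 and 2707 to 4083 with arrays left out. The replicate block gave 103 above 0 for the difference in response, 277 higher and 520 lower within replicates 1 and 2, 3395 and 3420 in sorted DCs, 4402 and 3940 for experiment 3 against 2, and 188 and 976 for the shared genes, each within 1.5 times of the value reported. The cause of these changes was not tested.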

Other observations

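Genes of GM-CSF and growth factor signalling were higher in replicates 3 and 4 for 9 of 18 members without overlap and lower for 1. Among all genes these shares were 16.0% and 19.3%. The median difference of the list was 0.25, against 0.12 for all genes, and was 0.14 in untreated and 0.53 in treated arrays. *Socs3*, a feedback inhibitor of cytokine receptors, was at 10.27 and 10.23 in untreated and 9.1 and 9.25 in treated cells of replicates 1 and 2 and at 10.78, 11.11, 10.7 and 10.67 in replicates 3 and 4. *Stat5a*, which carries the GM-CSF signal, was at 10.97, 10.92, 9.85 and 9.86 against 11.4, 11.36, 11.28 and 11.48, and fell by 1.09 with sTM in replicates 1 and 2 (difference of the change between the sets 1.09, adjusted p = 0.0296 by limma). *Runx3* differed by 1.1 between the sets.

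Lipid genes were divided. *Lpcat3*, which remodels phospholipids, was lower in replicates 3 and 4 (10.03, 10.47, 10.33 and 10.4 against 8.84, 8.99, 8.8 and 8.74), as was *Pparg* (-0.96), while *Abca1*, the cholesterol exporter, was higher (0.84). The lysosomal regulator *Tfec* differed by -1.61 and the transferrin receptor *Tfrc*, which takes up iron, by -2.01. The platelet chemokine *Ppbp* was at 10.87, 11.36, 11.41 and 11.57 against 9.12, 9.29, 9.37 and 9.08. It was the only member of its list of 7 megakaryocyte and platelet genes to differ 2-fold. In that list 3 genes were higher and 3 lower without overlap, with a median difference of 0.12, as for all genes. Genes of B cells and of T and NK cells held no member that differed 2-fold between the sets. *Xist* was at 10.82 to 11.43 and 11.56 to 11.84, and the Y-linked *Uty*, *Eif2s3y* and *Kdm5d* were at 4.91 or below in all 8 arrays.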
